A study of Arabidopsis thaliana with 2 samples.

Results

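The serine carboxypeptidase-like (SCPL) genes of Arabidopsis thaliana were examined in pericycle cells of seedling roots (ecotype Columbia) kept without or with iron. Every probe set that the platform's gene table pairs with exactly 1 gene, and whose symbol is SCPL followed by a number, was taken as a member, however dim its signal. This gave 29 probe sets for 29 genes on 5 chromosomes, out of 13513 single-gene probe sets and 22746 plant probe sets in all. The genes were selected on their symbol alone, but the -Fe and +Fe signals of this pair of arrays were known when the family was picked, so all values are descriptions.

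Seedlings of the reporter line J2661, in which pericycle cells carry green fluorescent protein, grew for 6 days on standard medium with iron as Fe(III)-EDTA. They were moved for 24 h either to medium without iron, where 0.3 mM ferrozine, an iron chelator, took the place of the iron salt (-Fe), or to fresh medium with iron (+Fe). At an age of 7 days the roots were protoplasted, fluorescent cells were sorted, and amplified, biotin-labelled cRNA was read on 1-colour Affymetrix arrays. One column of values per condition, labelled replicate 1, was analysed and taken as 1 array. The comparison asks how the pericycle responds to a day without iron. A single array per condition gives no replicate check and allows no test, so "higher" and "lower" hold for these 2 arrays alone. In sorted bulk cells, fewer cells of a type and less RNA per cell cannot be told apart.

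SCPL proteins share the fold and the serine, aspartate and histidine catalytic residues of serine carboxypeptidases, enzymes that remove amino acids from the C-terminal end of proteins, and most enter the secretory pathway or the vacuole. Some plant members no longer act as proteases and instead move an acyl group from a glucose ester to another molecule. In Arabidopsis these include SNG1, which makes sinapoylmalate, and SNG2, which makes sinapoylcholine in seeds. BRS1, another family member, was identified through its effect on brassinosteroid signalling.

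The reference gene table holds 51 genes with an SCPL number, of which 22 had no single-gene probe set here and were not analysed. Those 22 include SNG1 (SCPL8), SNG2 (SCPL19) and BRS1 (SCPL24), so none of the 3 genes with the roles given above is among the values below. Of the 19 genes numbered up to 19, the numbers that include the sinapate acyltransferases, 2 were members. Of the 32 with higher numbers, 27 were members. The description therefore covers mainly the higher-numbered genes.

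Without iron, 6 of the 29 members read at least 1.5-fold higher (background 10.5% of the single-gene probe sets) and 0 read at least 1.5-fold lower (background 0.252%). The 6 were scpl50, scpl26, scpl48, scpl31, scpl29 and SCPL49, with log2 differences of 0.83 to 1.24. At 2-fold, 2 members were higher, scpl50 and scpl26 (background 0.821%). The other 23 members lay within 1.5-fold, and by any amount 12 of all 29 were higher (background 45.1%) and 17 lower without iron. The median log2 difference was -0.17 over the 29 members and -0.08 over all single-gene probe sets. On these arrays dim probe sets were mostly lower and bright ones mostly higher without iron. The 9 hybridisation controls, which are not plant genes, were all higher without iron as well, with a median log2 difference of 0.36. Each difference therefore also has a trend-adjusted form, in which a smooth curve of difference on brightness, drawn over all plant probe sets, has been subtracted. The trend-adjusted median log2 difference was -0.0031 over the members and 0.0026 over all single-gene probe sets. On that scale 2 members, scpl31 and scpl50, were at least 1.5-fold higher (background 0.466%) and 0 were at least 1.5-fold lower (background 0.562%).

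As probe sets differ in how strongly they bind their targets, signals are compared here between the arrays for the same probe set, not between genes. A signal of at least 0.858, the median over all plant values, was seen for 8 members on both arrays and for 4 others (scpl20, scpl25, scpl28 and scpl31) on the array without iron alone. The remaining 17 were below it on both arrays. In all, 12 of the 29 members reached it on either array (background 46.8% of the single-gene probe sets). The share of all single-gene probe sets that reached it without iron alone was not counted.

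**Figure D1:**
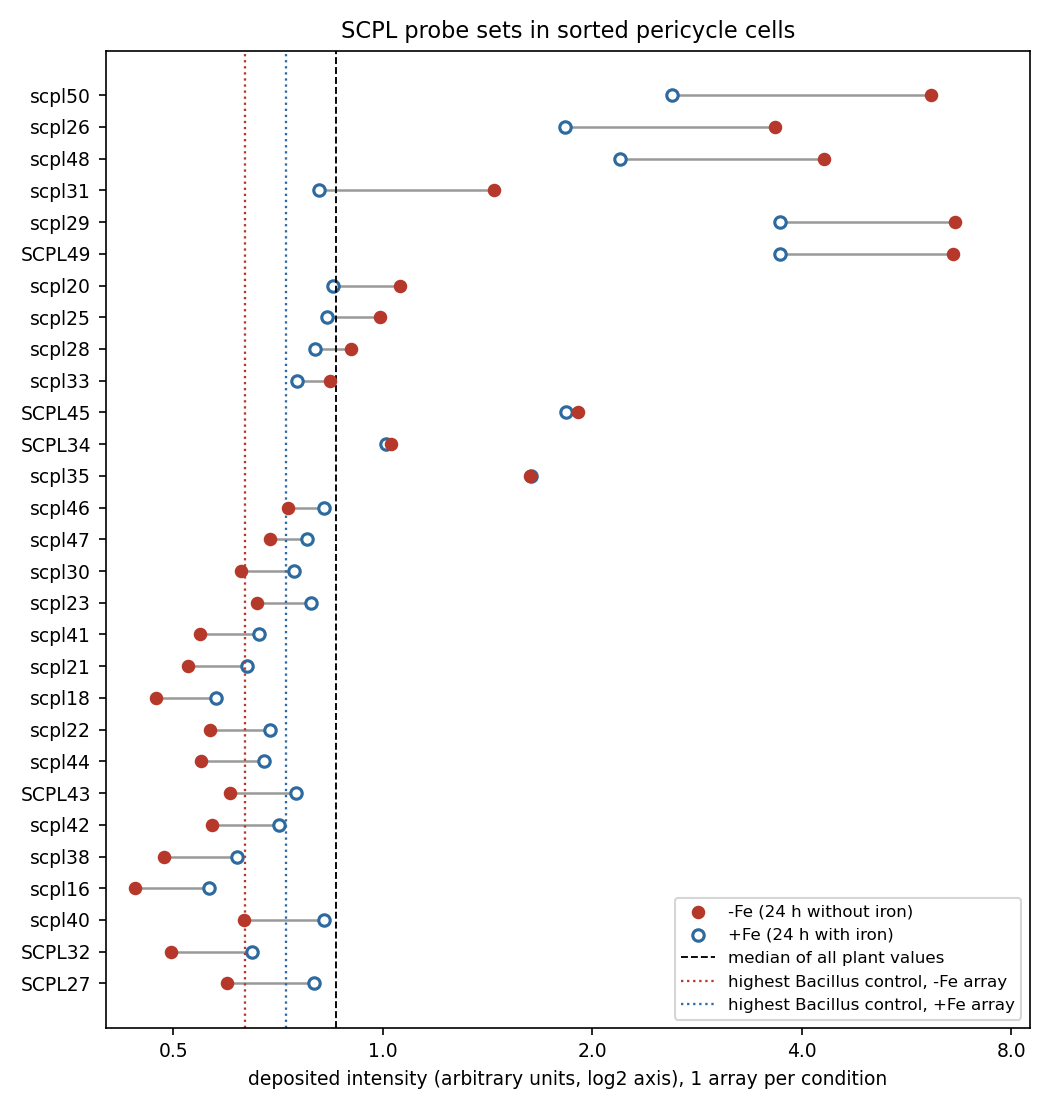
Deposited intensity (arbitrary units, log2 axis) of the 29 SCPL probe sets, with filled points for the -Fe array and open points for the +Fe array, sorted by their log2 difference. The 6 uppermost genes lie at 1.45 to 6.64 without iron and at 0.810 to 3.73 with iron, while most genes in the lower part read left of the dashed median of all plant values, 0.858, on both arrays; dotted lines mark the highest Bacillus control of each array.

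scpl50 (AT1G15000) had the largest difference of the 29 members. It read 6.14 without iron and 2.61 with iron, 2.36-fold higher. Its place among all plant probe sets moved with it, at percentile 93.9 of the array without iron and 88.7 of the array with iron. After trend adjustment it was 1.55-fold higher (log2 0.63). The robust SD of the 500 probe sets nearest in brightness, called the local SD below, was 0.24 there, and measures how genes differ, not how replicates differ. The authors' deposited table lists a q of 0.0149 for scpl50.

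scpl26 (AT2G35780) read 3.66 without iron and 1.83 with iron, 2.00-fold higher. It was at percentile 87.8 without iron and 81.8 with iron, and 1.38-fold higher after trend adjustment (log2 0.46, local SD 0.23). With 1.38e-07, it had the smallest q of the members in the authors' deposited table. Its neighbour on chromosome 2, scpl28 (AT2G35770), for which the reference lists no protein-coding gene between, read 0.899 without iron and 0.801 with iron. The deposited and trend-adjusted log2 differences of scpl28 were 0.17 and 0.15, so both genes of this pair were higher without iron, scpl26 by more. With all differences shifted down by 0.37, the median difference of plant probe sets that reached 0.858 on an array (centring on bright probe sets below), scpl28 turned to -0.20.

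scpl48 (AT3G45010) read 4.31 without iron and 2.19 with iron, 1.97-fold higher, or 1.32-fold after trend adjustment (log2 0.40, local SD 0.22). SCPL49 (AT3G10410) is listed in the reference as carboxypeptidase Y, the name of the vacuolar carboxypeptidase of yeast. It read 6.60 without iron and 3.72 with iron, 1.77-fold higher. The trend-adjusted log2 difference of SCPL49 was 0.21 with a local SD of 0.23, and its percentile was 94.4 without iron and 93.3 with iron. scpl29 (AT4G30810) read 6.64 without iron and 3.73 with iron, with a trend-adjusted log2 difference of 0.22. Thus scpl29 and SCPL49, though 1.78-fold and 1.77-fold higher as deposited, stood less than 1 local SD above the trend. Their q values in the authors' deposited table were 2.05e-05 for scpl29, 0.000113 for scpl48 and 0.00034 for SCPL49.

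scpl31 (AT1G11080) was the member farthest above the trend. It read 1.45 without iron and 0.810 with iron, 1.78-fold higher, so that it lay above the median of all plant values, 0.858, without iron and below it with iron. Its percentile was 66.9 without iron and 46.5 with iron, the widest move in rank of the members that were higher. After trend adjustment it was 1.56-fold higher (log2 0.65, local SD 0.17). The authors' deposited table lists a q of 0.0773 for scpl31, which alone among the 6 was not under 0.05.

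**Figure D2:**
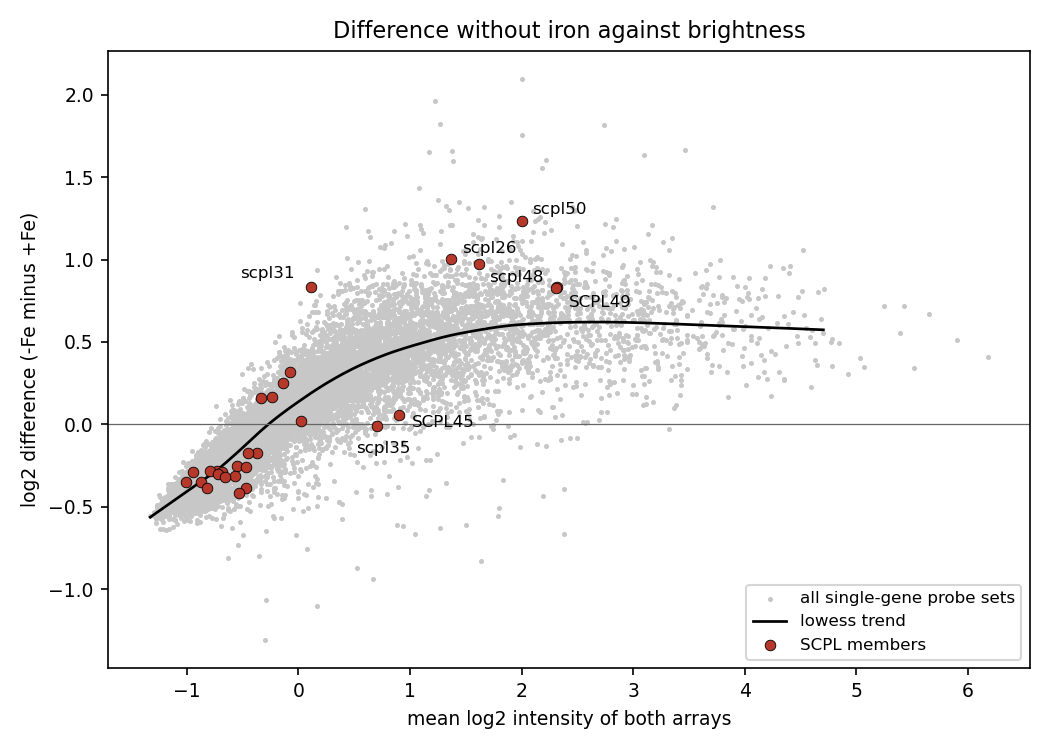
Log2 difference (-Fe minus +Fe) against the mean log2 intensity of both arrays, for all 13513 single-gene probe sets (grey) and the 29 SCPL members (red), with the smooth trend (black). scpl31 and scpl50 stand 0.65 and 0.63 above the trend, SCPL45 and scpl35 lie 0.39 and 0.41 under it, and the dim members follow it at the lower left.

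A pair of members with clear signal on both arrays showed nearly equal values. SCPL45 (AT1G28110) read 1.91 without iron and 1.83 with iron, which is 0.06 on the log2 scale. scpl35 (AT5G08260) read 1.63 on both arrays, a log2 difference of -0.01. Since most probe sets of their brightness were higher without iron, their trend-adjusted log2 differences were -0.39 (local SD 0.21) for SCPL45 and -0.41 (local SD 0.19) for scpl35. In rank they were lower without iron, SCPL45 at percentile 74.6 without iron and 81.8 with iron, and scpl35 at percentile 70.1 without iron and 78.7 with iron. The authors' deposited table gave q of 0.24 for SCPL45 and 0.222 for scpl35.

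The remaining members near the median of all plant values showed small differences. SCPL34 (AT5G23210) read 1.03 without iron and 1.01 with iron, 0.02 higher on the log2 scale. scpl20 (AT4G12910) read 1.06 without iron and 0.847 with iron, 0.32 higher on the log2 scale. scpl25 (AT3G02110) read 0.989 without iron and 0.833 with iron, 0.25 higher. After trend adjustment SCPL34 was at -0.13, scpl20 at 0.22 and scpl25 at 0.18 on the log2 scale, and with centring on bright probe sets scpl20 and scpl25 turned to -0.05 and -0.12. In the authors' deposited table, q was at or above 0.0892 for these 3.

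**Figure D3:**
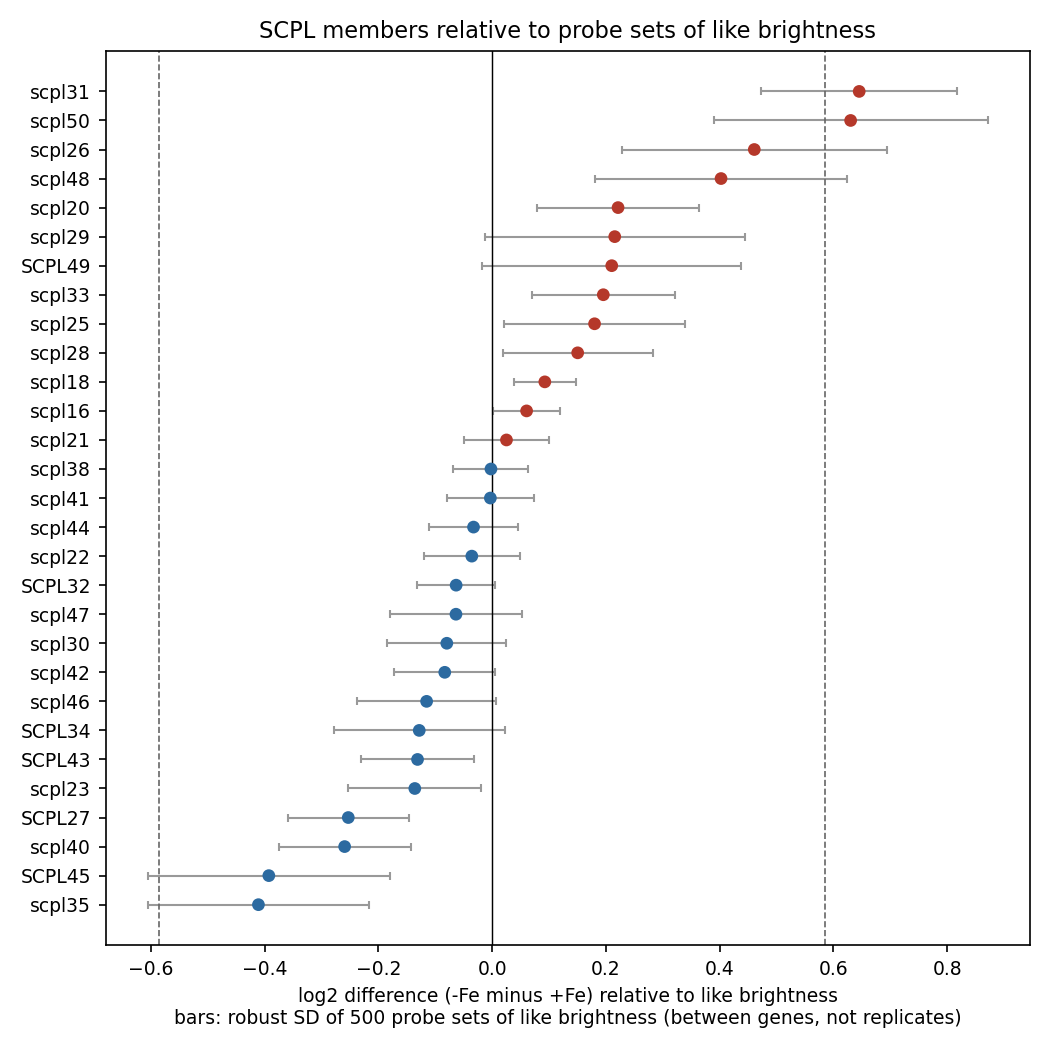
Log2 difference (-Fe minus +Fe) of each of the 29 members after trend adjustment (axis: relative to like brightness), with bars of 1 robust SD among the 500 probe sets nearest in brightness (genes, not replicates) and dashed lines at 1.5-fold. scpl31 and scpl50 are the members past the upper line at 0.65 and 0.63, no member passes the lower line, and scpl35 is lowest at -0.41.

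The signal of 17 members was below the median of all plant values on both arrays (background 53.2% of the single-gene probe sets). Of these, 16 were lower and 1, scpl33 (AT3G17180), was higher without iron as deposited, but scpl16, scpl18 and scpl21 turned positive under 3 of the 4 other scalings described below, scpl38 under 1, and scpl33 turned to -0.21 with centring on bright probe sets. scpl33 read 0.841 without iron and 0.753 with iron, 0.16 higher on the log2 scale. The 17 ranged from 0.441 to 0.841 without iron and from 0.562 to 0.824 with iron, and their log2 differences ran from -0.42 to 0.16 with a median of -0.29. The median over all 7183 single-gene probe sets that dim was -0.29 as well. Among those 7183, 5.58% were higher without iron.

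Within this dim group, 9 members lay in the range of the 27 Bacillus controls on both arrays. These controls detect bacterial transcripts that no plant makes, and reached 0.635 without iron and 0.727 with iron. The share of all single-gene probe sets in that range was not counted. The medians over those below the median of all plant values on both arrays, 0.539 without iron and 0.657 with iron, lay within it. The 9 members were scpl16, scpl18, scpl21, scpl22, SCPL32, scpl38, scpl41, scpl42 and scpl44, at 0.441 to 0.569 without iron and 0.562 to 0.710 with iron. They include scpl16 and scpl18, the members numbered under 20. Their deposited log2 differences were -0.39 to -0.28 and their trend-adjusted ones -0.08 to 0.09, while the Bacillus controls, lower without iron at all 27, had a median of -0.42. In the authors' deposited table all 9 carried a q under 0.05, as did all 27 Bacillus controls, against 81.7% of the single-gene probe sets below the median on both arrays. A small q thus accompanied a signal no brighter than these controls.

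Another 4 members, scpl30, scpl40, SCPL27 and SCPL43, were in the Bacillus range without iron but above it with iron, so the sizes of their differences are not measured. The share of all single-gene probe sets in that range without iron alone was not counted. SCPL27 (AT3G07990) read 0.597 without iron and 0.797 with iron. scpl40 (AT3G63470) read 0.631 without iron and 0.824 with iron. The authors' deposited table gave q of 0.00451 for SCPL27 and 0.091 for scpl40.

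scpl30 (AT4G15100) and SCPL43 (AT2G12480) read 0.627 and 0.604 without iron and 0.746 and 0.752 with iron. The last 3 dim members, scpl23, scpl46 and scpl47, read 0.659, 0.731 and 0.689 without iron and 0.790, 0.824 and 0.778 with iron. These are log2 differences of -0.26, -0.17 and -0.17, which trend adjustment brought to -0.14, -0.12 and -0.06. scpl23 lies next to scpl22 on chromosome 2 with no protein-coding gene between in the reference. The log2 differences of scpl23 and scpl22 were -0.26 and -0.29, or -0.14 and -0.04 after trend adjustment. scpl41 and scpl42 on chromosome 5, with 2 protein-coding genes between, had log2 differences of -0.28 and -0.32. After trend adjustment these were -0.0031 and -0.08. As scpl22, scpl41 and scpl42 were in the Bacillus range on both arrays, the sizes of their differences are not measured. No member probe set carries the suffix that marks probe sets shared by several transcripts, but cross-hybridisation between close family members was not tested.

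By the authors' deposited table, 19 of the 29 members had q below 0.05 (background 63.7% of the single-gene probe sets), a share close to the background. Of these 19, 14 were lower without iron on this pair of arrays (background 44.3%), all of them below the median of all plant values on both. The other 5 were higher (background 19.4%), namely scpl26, scpl29, scpl48, SCPL49 and scpl50. The sources used here do not give the arrays and the test behind these q values. Beyond 2 local SDs from the trend were 5 members, scpl31 and scpl50 above and scpl35, scpl40 and SCPL27 below (background 6.9%). Of these, scpl40 and SCPL27 were in the Bacillus range without iron, so how far they lay from the trend is not measured.

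**Figure D4:**
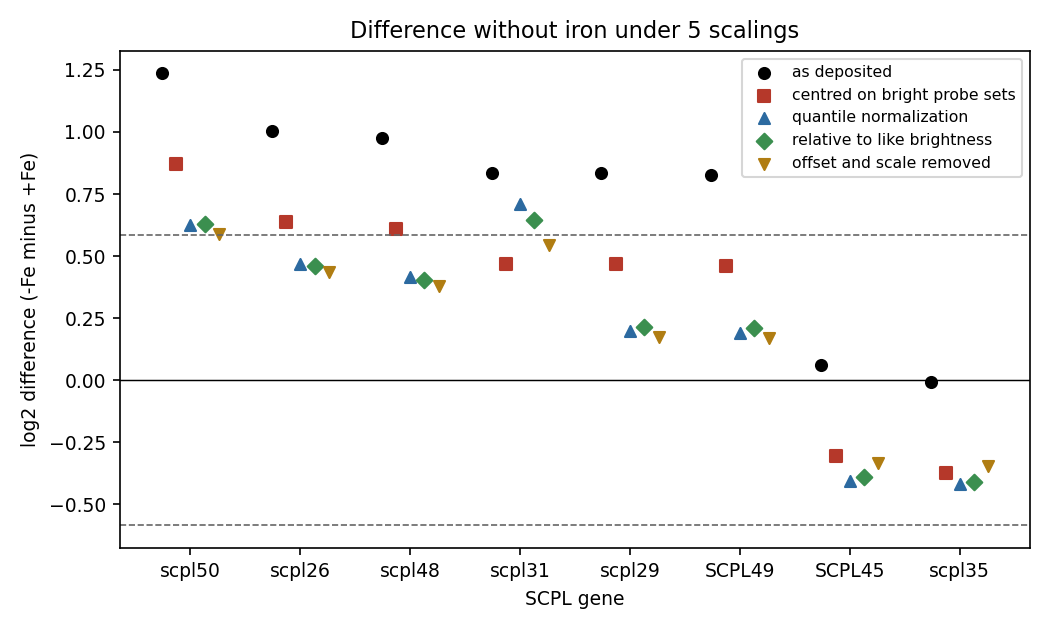
Log2 difference (-Fe minus +Fe) of 8 SCPL genes as deposited and under 4 other scalings, with dashed lines at 1.5-fold. scpl50 lies between 0.59 and 0.87 under the 4 scalings, at or above the upper line in all, while SCPL45 and scpl35 lie below 0 under all 4.

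The 6 members that were 1.5-fold higher as deposited were higher without iron under each of 4 other scalings (quantile normalization, centring on bright probe sets, the trend with brightness subtracted, and the -Fe values rescaled by a fitted offset and factor). Centring and trend subtraction could not have turned them. Their lowest deposited difference, 0.83, exceeds the shift of 0.37 and the highest value of the trend, 0.62. scpl50 alone stayed at least 1.5-fold higher under all 4, with log2 values from 0.59 to 0.87. The lowest of these, 0.59, is close to the 1.5-fold line. The share of all single-gene probe sets that stayed 1.5-fold higher under all 4 was not counted. With the fitted offset and factor alone, 48 of 13513 were 1.5-fold higher. scpl31 ranged from 0.47 to 0.71, scpl26 from 0.44 to 0.64 and scpl48 from 0.38 to 0.61. SCPL45 and SCPL34, slightly positive as deposited, were negative under all 4, and scpl35 was negative throughout. Centring on bright probe sets lowers every difference by 0.37, so the median over all single-gene probe sets was -0.44 instead of -0.08. With that centring 14 members lay at least 1.5-fold lower, all of them dim, as did 5004 of the 13513 single-gene probe sets.

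Genes of processes in which SCPL proteins act were listed beside them, and iron deficiency genes were listed for the treatment. Of 9 vacuolar proteases, 6 were measured and 2 were at least 1.5-fold higher without iron, against 10.5% of all single-gene probe sets and 22.5% of those not below the median of all plant values on both arrays, where 5 of the 6 lay. Their median log2 difference was 0.44, or -0.04 after trend adjustment. GAMMA-VPE, a vacuolar processing enzyme, read 12.7 without iron and 7.15 with iron, 0.83 higher on the log2 scale and 0.22 after trend adjustment. These differences are close to those of SCPL49, 0.83 and 0.21. AT3G45310, a papain-type cysteine protease, was 0.63 higher, and 0.01 after trend adjustment. APA1, a vacuolar aspartic protease, read 29.6 without iron and 19.9 with iron, 0.58 higher, and -0.0016 after trend adjustment. The log2 differences of BETA-VPE, ALPHA-VPE and DELTA-VPE, the last below the median of all plant values on both arrays, were 0.31, -0.05 and -0.51 as deposited. After trend adjustment they were -0.16, -0.08 and -0.13. DELTA-VPE was in the Bacillus range on both arrays, so the size of its difference is not measured.

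Of 23 genes of sinapate and phenylpropanoid synthesis, 5 were measured, and none was 1.5-fold higher or lower as deposited (median -0.02) or after trend adjustment (median -0.04). UGT84A1, UGT84A3 and UGT84A4, whose products make glucose esters of the kind that SCPL acyltransferases use, read 0.649, 0.522 and 0.805 without iron and 0.755, 0.681 and 0.815 with iron, all below the median of all plant values. UGT84A3 was in the Bacillus range on both arrays. ALDH2C4, which oxidises sinapaldehyde, read 1.90 without iron and 1.35 with iron, 0.49 higher on the log2 scale and 0.10 after trend adjustment. HCT, an enzyme of the lignin branch, was 0.54 higher, and -0.04 after trend adjustment. Of 13 brassinosteroid genes, BRL1, a brassinosteroid receptor, was the 1 measured, at 0.853 without iron and 0.756 with iron. Of 12 iron deficiency genes, 3 were measured. PYE, a bHLH regulator of the iron response, was 0.59 higher on the log2 scale and 0.28 after trend adjustment, and BHLH101 and the iron peptide gene AT1G47400 (IMA1) were below the median of all plant values on both arrays. AT1G47400 was in the Bacillus range on both arrays and BHLH101 with iron, so the sizes of their differences are not measured. The log2 values were 0.02 for BHLH101 and -0.20 for AT1G47400 as deposited, and 0.25 and 0.11 after trend adjustment.

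Of 36 markers of root cell types, 6 were measured. The 1 measured of 8 pericycle and stele markers, LHW, read 5.66 without iron and 3.82 with iron, a trend-adjusted log2 difference of -0.05 (local SD 0.22), and no other marker bore on the pericycle label. The 2 measured of 7 root hair and epidermis markers, EXPA7 and EXPA18, summed to 1.62 without iron and 2.06 with iron. Their trend-adjusted log2 differences were -0.47 (local SD 0.14) and -0.36 (local SD 0.16). GSO1 (SGN3), 1 of 6 endodermis markers, read 1.44 without iron and 1.46 with iron, or -0.37 after trend adjustment (local SD 0.19). OPS, 1 of 4 phloem markers, read 0.866 without iron and 0.768 with iron, or 0.19 after trend adjustment (local SD 0.13). The cortex marker AT1G62500, in the Bacillus range on both arrays, read 0.497 without iron and 0.638 with iron. None of the 6 xylem and 4 root cap and niche markers was measured. The part of other cell types in the SCPL differences was not tested.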

How the data were processed

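The authors deposited 1 column of intensity values per condition and a q-value (an adjusted p-value) per probe set. Per the labels, cRNA came from Affymetrix's amplification in successive rounds and each reporter line had 3 biological replicates. Only the replicate labelled 1 of each condition was used here. For background correction, summarisation, scaling and the test behind q, the method is not given in the sources used here. The intensities are linear, with medians of 0.866 without iron and 0.852 with iron over 22746 plant probe sets (55 control probe sets set apart). Precision is limited by 1 array per condition. No per-sample column was left unused.

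All 29 members matched the reference table (TAIR10.1) by gene ID, and its coordinates were used only for neighbours. Differences are log2 without iron minus log2 with iron, with no pseudocount and no filter. The brightness trend is a lowess curve (fraction 0.2, statsmodels 0.14.6), and the local SD is robust over 500 probe sets. The procedure was tested on a simulated pair. All members were named, with the measured genes of 4 lists and the markers. The members, lists and rule were chosen with earlier results of these data known. Alternatives covered scaling, pseudocounts, signal filters and thresholds.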

Additional observations from a re-analysis of the deposited data

How the results depend on the processing

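No paired analysis was possible because each condition has 1 array. The reported median over the members, -0.17, was -0.54 with centring on bright probe sets. It was 0.83 over the 11 members with a mean signal of at least 0.858. Over the 6085 single-gene probe sets past the same filter, the median was 0.36. Of those 11 members, scpl20, scpl25 and scpl31 were below 0.858 with iron and passed only through their signal without iron. Under the other settings tried, the median over the members shifted by less than 0.33, the pooled SD between probe sets of 1 gene. That SD rests on 15 genes and describes single probe sets, not a median over members. Members at least 1.5-fold higher numbered 6 as deposited, 2 after quantile normalization, 3 with centring on bright probe sets, 2 with the brightness trend subtracted, 1 with the -Fe values rescaled by a fitted offset and factor (an alternative added after seeing the data) and 2 at a 2-fold threshold. Members at least 1.5-fold lower numbered 0, and 14 with that centring, which lowers every difference by 0.37. Over all single-gene probe sets, in the same order of settings, 1424 higher as deposited became 67, 155, 63, 48 and 111, and 34 lower became 85, 5004, 76, 57 and 3. A pseudocount of 1 gave 578 higher and 2 lower, a pseudocount of 0.1 gave 16 lower, and the filter on mean signal gave 14 lower. Among the members, a pseudocount of 1 left 5 at least 1.5-fold higher, as the log2 difference of scpl31 fell to 0.43. No member that was 1.5-fold higher as deposited changed its direction under these settings, but most of them could not have changed it. The lowest such difference, 0.83, exceeds the shift of 0.37 and the highest value of the trend, 0.62, and a pseudocount keeps the sign. The cause of the shifts between scalings was not tested. Signals in the Bacillus control range carry no order, and with 1 array per condition the spread between replicates is unknown.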
